A study of Mus musculus with 4 samples.

Results

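The genes described here are the amino acid transporters of the solute carrier families Slc1, Slc3, Slc6, Slc7, Slc36, Slc38 and Slc43, as measured in granulocytes grown from mouse bone marrow with and without the microRNA miR-223. They were chosen by gene name on the array, every name of the form Slc, one of those family numbers, the letter a and a digit, which gave 61 of 28137 genes. Of several probes for a gene, the one brightest on average over the 4 arrays (mean log2 signal) stood for it. The name pattern also takes in Slc7a6os, a gene on the opposite strand beside Slc7a6 that is not a carrier. Carriers whose main cargo is not an amino acid are taken in too, such as Slc6a4 for serotonin and Slc43a3 for purine nucleobases. All are counted among the transporters below, Slc7a6os included, unless stated.

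Marrow from male C57BL/6 mice, either wild type or miR-223 knockout, was kept for 4 days with GM-CSF at 40 ng/ml, a growth factor of granulocytes and macrophages. The immature granulocytes that expanded were then sorted. Their total RNA was labelled with Cy3 and put on 1-colour Agilent mouse arrays, 2 arrays per genotype, all on 1 slide, and the comparison asks which transcripts differ when miR-223 is missing. The labels give no age and no details of the knockout allele, and both groups received the same culture. Whether the replicates are separate animals is not stated either, so p-values measure only the spread between these samples, which may be technical. No probe was named for Mir223 (0 probes), so the arrays did not check the knockout itself.

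Amino acid transporters set which amino acids a cell can take up, exchange or release. The light chains of Slc7 reach the cell surface only when joined to a heavy chain of the Slc3 family, and most of them exchange one amino acid for another. Sodium-coupled carriers of Slc1, Slc6 and Slc38 pump their cargo inward against its gradient, while carriers on the lysosome release amino acids to the cytosol and report on them to mTORC1, the kinase complex that links nutrient supply to growth. In myeloid cells, glutamine, arginine, cystine and branched-chain amino acids feed proliferation, nitric oxide and polyamine synthesis, and glutathione.

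miR-223 is a microRNA of the myeloid lineage that lowers transcripts carrying sites for its seed, bases 2 to 8 of the mature strand. The mature strand is shown because the knockout removes it, with the seed in capitals, as given by RefSeq for assembly GRCm38.p6 (chromosome X, 96242884 to 96242905, plus strand).
miR-223-3p: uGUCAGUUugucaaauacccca
The 7 bases that pair with this seed, AACTGAC, were searched in the array's own probe sequences, which are short stretches of each transcript. None of the 110 probes of the 61 genes held them, against 153 of 41174 probes on the array (0.372%). A probe covers a small stretch of a transcript, so this search says nothing about sites elsewhere in these genes.

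Of the 61 genes, 36 had a probe that was clearly above background on the pair of arrays of 1 genotype or more, and were tested. Of these, 33 were well above background on all 4 arrays. The other 3, Slc1a4, Slc6a17 and Slc7a15, were so on 3 arrays, missing 1 wild-type array each. The remaining 25 genes were not tested, and 21 of them were well above background on no array. Among these 21 were the glutamate carriers Slc1a3, Slc1a6 and Slc1a7; Slc38a4, Slc38a8 and Slc38a11; the light chains and relatives Slc7a9, Slc7a10, Slc7a12, Slc7a13 and Slc7a14; and Slc6a2, Slc6a3, Slc6a7, Slc6a11, Slc6a14, Slc6a15, Slc6a18, Slc6a19 and Slc6a20b, most of them carriers of the brain, kidney or gut. The last 4 passed on some arrays: Slc1a1, Slc38a5 and Slc6a20a on 1 wild-type array each, and Slc3a1, the heavy chain of the kidney and gut cystine carrier, on 1 array of each genotype. By family, all 4 Slc36 genes and all 3 Slc43 genes were tested, as were 4 of 5 cationic carriers, 6 of 10 light chains, 6 of 10 Slc38 genes, 8 of 19 Slc6 genes, 3 of 7 Slc1 genes and 1 of 2 heavy chains.

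None of the 36 tested genes passed the threshold of an adjusted p under 0.05 in limma (Benjamini-Hochberg, over all 16579 tested genes), and no gene of the whole array did (0%). At an unadjusted p under 0.05, 3 transporters were higher in the knockout, against a background of 7.97% of all tested genes, and 4 were lower, against 5.6%. These counts rest on few arrays. Without knockout replicate 1 they were 0 higher and 2 lower, and without knockout replicate 2 they were 1 higher and 2 lower. Over all 16579 genes the counts moved as well, from 1322 higher and 928 lower to 622 and 785 without knockout replicate 1 and to 587 and 481 without knockout replicate 2. Without wild-type replicate 1 or 2, 2 were higher in both cases, and 5 and 3 were lower, where all genes gave 1494 and 1488 higher and 1331 and 850 lower. Scaling by the spike-in probes gave 2 higher and 4 lower, and over all genes 699 higher and 1243 lower.

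The arrays of the genotypes did not overlap for 16 transporters. In 8 of them the knockout arrays were both above the wild-type pair, against 27.8% of all tested genes, and in 8 they were both below it, against 20.3%. In the other 20 the arrays overlapped. Slc7a6os, which is no carrier, was among the 8 below, and without it 7 lay below. Under spike-in scaling the split was 6 above and 12 below, where 16.7% and 28.3% of all tested genes lay above and below. The median difference, knockout minus wild type on the log2 scale, was -0.04 over the 36 transporters and 0.03 over all tested genes, and -0.14 and -0.07 under spike-in scaling. Without Slc7a6os, the median of the other 35 genes was -0.03. The median size of a difference, whatever its sign, was 0.22 for the transporters and 0.18 for all genes, with median standard errors (SE) of 0.18 and 0.16. In 12 of the 36 genes the difference was larger than the gap between replicates in both genotypes, and in 1, Slc43a1, it exceeded 2-fold. The matching shares of all tested genes were not computed, so these counts show nothing particular to the transporters.

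**Figure D1:**
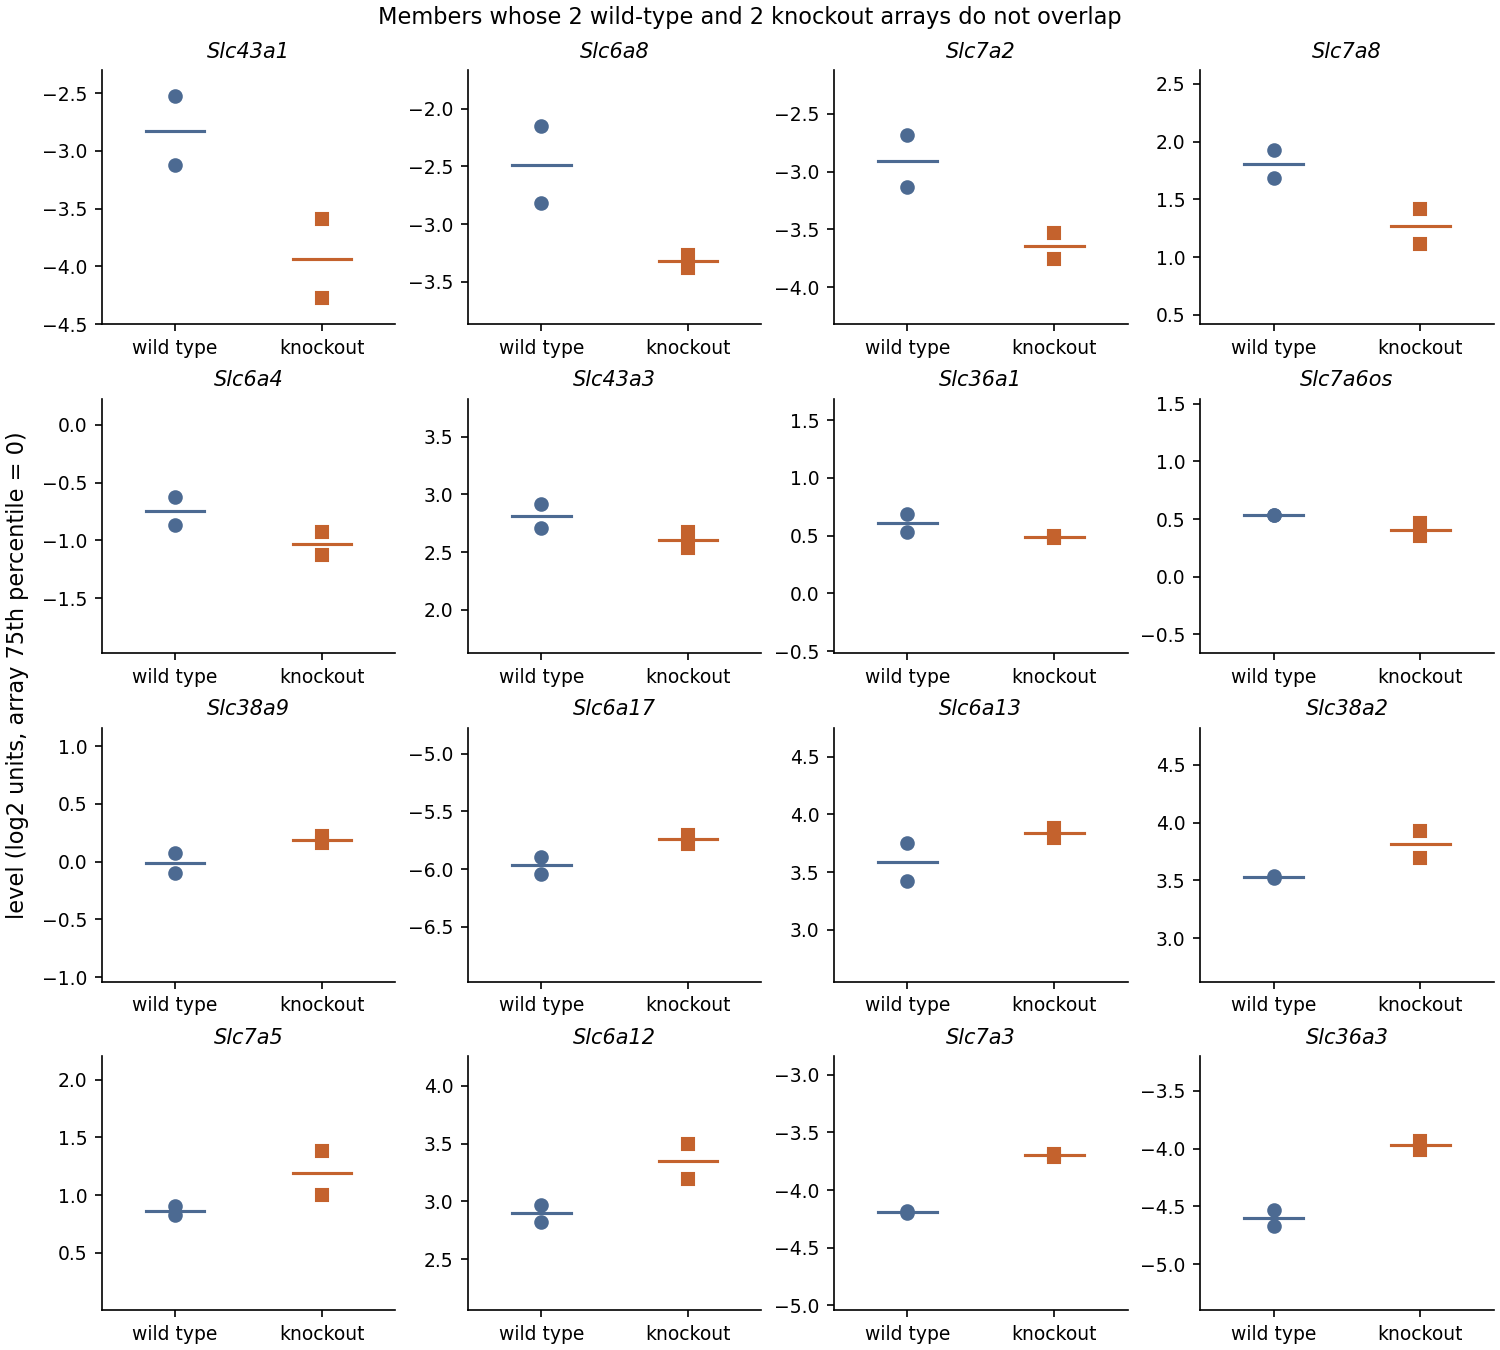
Level of the 16 genes (Slc7a6os included) whose arrays did not overlap between genotypes, in log2 units with the 75th percentile of each array at 0. Circles are the 2 wild-type arrays, squares the 2 knockout arrays and lines the means, and every panel spans the same number of log2 units. Slc43a1 has the widest step down and Slc36a3 the widest step up.

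Levels below are log2 signals relative to the 75th percentile of each array, which is 0, and differences are knockout minus wild type with limma's moderated SE and n = 2 arrays per genotype. A probe's level cannot be set against that of another gene. Probe positions are those of the array annotation, build mm9. In these bulk samples, fewer cells of a type and less RNA per cell cannot be told apart.

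Slc3a2 encodes the heavy chain that carries most Slc7 light chains to the cell surface. It stood at 4.62 and 5.27 on the wild-type arrays and at 4.87 and 4.90 on the knockout arrays. The knockout values lay between the wild-type values, and the difference was -0.06 ± 0.25 (SE).

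Among its light chains, 1 had a positive difference and 5 a negative one, with a median of -0.15. Slc7a8, an exchanger of neutral amino acids, read 1.68 and 1.92 in the wild type and 1.42 and 1.11 in the knockout. The knockout was lower on both arrays, with a difference of -0.54 ± 0.18, or 1.45-fold (limma, Benjamini-Hochberg adjusted p = 0.333). Its probe lay on chromosome 14 at 55341137 to 55341196. Slc7a5, the other main exchanger of large neutral amino acids such as leucine, read 0.90 and 0.83 against 1.38 and 1.002. Here the knockout arrays were both higher, and the difference was 0.32 ± 0.17, so the pair of light chains that share this cargo had differences of opposite sign.

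Slc7a7 and Slc7a6 exchange cationic for neutral amino acids. Their differences were -0.22 ± 0.20 and -0.07 ± 0.16, and their arrays overlapped. Slc7a15, a light-chain relative, had a difference of -0.05 ± 0.25. Slc7a6os, the neighbour of Slc7a6 on the opposite strand, read 0.53 and 0.53 in the wild type and 0.47 and 0.35 in the knockout, a difference of -0.12 ± 0.12. Both of its knockout arrays were lower, by no more than the SE.

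Slc7a11 is the light chain that takes up cystine in exchange for glutamate and so supplies glutathione synthesis. Its brightest probe read 0.87 and 1.71 in the wild type and 0.01 and 1.67 in the knockout. The knockout replicates thus differed from each other by 1.66, more than the difference between genotypes, which was -0.45 ± 0.64 (n = 2 arrays per genotype). Without knockout replicate 1 that difference was 0.38, of the opposite sign. This probe was annotated with a cDNA accession that RefSeq did not match, on chromosome 3 at 50246786 to 50246845. The other 3 probes of Slc7a11 matched RefSeq and lay 70.74 to 77.09 kb away, at lower coordinates.

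On these 3 probes the picture differed. Probe 1 read -0.51 and 0.04 in the wild type and -0.56 and -0.60 in the knockout, a difference of -0.35 ± 0.22. Probe 3 read -1.87 and -1.53 against -2.52 and -2.33, a difference of -0.72 ± 0.18. Fitted with every probe as its own unit, probe 3 had a Benjamini-Hochberg adjusted p of 0.287 in limma over 25057 probes. Probe 4 read -2.69 and -2.06 against -2.94 and -2.82, a difference of -0.50 ± 0.24. In all 3 the knockout arrays were both below the wild-type pair, and none showed the wide gap between knockout replicates. The comparison of probes was added after their values were seen.

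**Figure D2:**
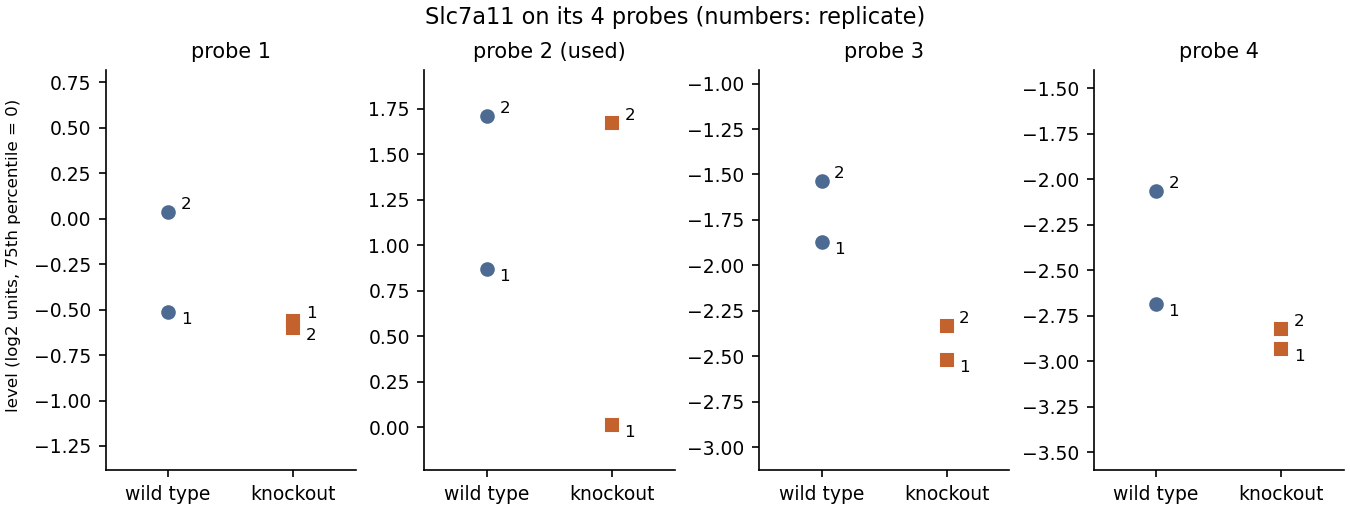
Level of Slc7a11 on its 4 probes in log2 units with the 75th percentile of each array at 0, with the replicate number beside each point (circles wild type, squares knockout). Probe 2, the one used, has a gap of 1.66 between the knockout replicates, while on probes 1, 3 and 4 the knockout arrays are both below the wild-type pair.

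The cationic carriers bring in arginine, lysine and ornithine without sodium. Slc7a2, an arginine carrier that in macrophages supplies arginase and nitric oxide synthase, read -3.13 and -2.69 in the wild type and -3.76 and -3.53 in the knockout. The genotypes did not overlap, and the knockout was lower, with a difference of -0.73 ± 0.21 (limma, Benjamini-Hochberg adjusted p = 0.301). Its probe lay on chromosome 8 at 42002869 to 42002928. Slc7a3, a related carrier known mainly from brain, read -4.20 and -4.18 against -3.71 and -3.69. Its replicates were within 0.03 of each other in both genotypes, and both knockout arrays were higher, by 0.49 ± 0.12 (limma, Benjamini-Hochberg adjusted p = 0.272). Its probe lay on chromosome X at 98274660 to 98274719.

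Slc7a1, the carrier of arginine and lysine found in most tissues, had a difference of -0.03 ± 0.19. Slc7a4, a relative whose cargo is uncertain, had one of -0.30 ± 0.31. In both, the arrays of the genotypes overlapped. The cationic carriers thus held 1 gene above and 1 gene below, with 2 overlapping.

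In the Slc1 family all 3 tested genes had small positive differences and overlapping arrays. Slc1a5, a glutamine and neutral amino acid exchanger often raised in dividing cells, had a difference of 0.09 ± 0.18. Slc1a4, which carries alanine, serine and cysteine, had one of 0.14 ± 0.33. Slc1a2, a glutamate carrier of astrocytes, had one of 0.25 ± 0.44. The Slc1a2 value came from a probe with a cDNA accession, while the gene's other 4 probes were all too dim to be tested.

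The Slc38 family moves glutamine, alanine and other small neutral amino acids with sodium, at the cell surface or on the lysosome. Of 6 tested genes, 5 had positive differences, with a median of 0.07. Slc38a2, a carrier known to be induced when cells lack amino acids, read 3.54 and 3.52 in the wild type and 3.69 and 3.93 in the knockout. The knockout was higher on both arrays, with a difference of 0.28 ± 0.14. Slc38a9, the lysosomal carrier that senses arginine for mTORC1, read -0.10 and 0.07 against 0.16 and 0.22. Both knockout arrays were again higher, and the difference was 0.20 ± 0.13.

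The other Slc38 genes overlapped between genotypes. Slc38a1, a glutamine carrier, had a difference of 0.05 ± 0.13, Slc38a10 one of 0.02 ± 0.13, and Slc38a7, which exports glutamine and asparagine from lysosomes, one of 0.10 ± 0.17. Slc38a3, a glutamine carrier of liver and kidney, had a difference of -0.69 ± 0.51. That value hung on wild-type replicate 2, which read -4.17 against -5.63 on wild-type replicate 1, and without wild-type replicate 2 the difference was 0.04.

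The Slc36 carriers move small amino acids together with protons. Slc36a3, whose expression is known mainly from testis, read -4.53 and -4.67 in the wild type and -3.93 and -4.01 in the knockout. The knockout arrays were the higher pair, with a difference of 0.63 ± 0.13, and the smallest p of the transporters (limma, Benjamini-Hochberg adjusted p = 0.256). Its probe lay on chromosome 11 at 54938511 to 54938570. A second probe, close by at 54938431 to 54938490, had a difference of 0.58. A further probe of the gene was well above background on no array and was not tested. Slc36a1, a lysosomal carrier tied to mTORC1, read 0.69 and 0.53 against 0.48 and 0.49. Its knockout arrays were both lower, by 0.13 ± 0.13. Slc36a2, a carrier of glycine and proline in the kidney, had a difference of -0.38 ± 0.22, and Slc36a4, which carries proline and tryptophan, one of -0.07 ± 0.13, with overlapping arrays in both.

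The Slc43 family carries its cargo by facilitated diffusion. Slc43a1, a carrier of branched-chain amino acids and phenylalanine, read -2.53 and -3.12 in the wild type and -3.59 and -4.28 in the knockout. No knockout array reached the wild-type range, and the difference of -1.11 ± 0.33, or 2.15-fold, was the widest of the transporters (limma, Benjamini-Hochberg adjusted p = 0.316). Its only probe lay on chromosome 2 at 84703269 to 84703328. Its relative Slc43a2, with similar cargo, had a difference of 0.25 ± 0.18 with overlapping arrays. Slc43a3, the nucleobase carrier, read 2.92 and 2.71 against 2.54 and 2.68, lower on both knockout arrays with a difference of -0.21 ± 0.15.

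The Slc6 family couples sodium and chloride to the uptake of neurotransmitters, osmolytes and amino acids. Of 8 tested genes, 5 had positive and 3 negative differences, with a median of 0.18. Slc6a12, the carrier of betaine and GABA that cells use in osmotic balance, read 2.82 and 2.97 in the wild type and 3.20 and 3.50 in the knockout. Both knockout arrays were higher, with a difference of 0.45 ± 0.16, or 1.37-fold (limma, Benjamini-Hochberg adjusted p = 0.36). Its probe lay on chromosome 6 at 121315541 to 121315600. Slc6a13, a GABA and taurine carrier that lies next to it, read 3.42 and 3.76 against 3.88 and 3.79. Both knockout arrays were higher here too, and the difference was 0.25 ± 0.16.

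Slc6a8, the creatine carrier, read -2.82 and -2.15 in the wild type and -3.38 and -3.26 in the knockout. The knockout arrays were the lower pair, with a difference of -0.84 ± 0.26, or 1.79-fold (limma, Benjamini-Hochberg adjusted p = 0.322). Its probe lay on chromosome X at 70927598 to 70927657. Slc6a4, the serotonin carrier, read -0.87 and -0.62 against -1.13 and -0.93. The knockout arrays were both lower, and the difference was -0.28 ± 0.16. Slc6a17, a vesicular carrier of neutral amino acids, read -6.04 and -5.89 against -5.78 and -5.70, a difference of 0.22 ± 0.13 near the limit of detection. The taurine carrier Slc6a6, the glycine carrier Slc6a9 and the orphan Slc6a16 had differences of 0.17 ± 0.16, -0.10 ± 0.24 and 0.18 ± 0.18, with overlapping arrays.

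Several of the wider differences belonged to dim probes, and their size changed under another background setting. With normexp background correction and an offset of 50 in place of the scanner's processed signal, the difference of Slc36a3 was 0.09 and that of Slc7a3 0.17. It was -0.35 for Slc7a2, -0.58 for Slc43a1 and -0.51 for Slc6a8, while the brighter Slc7a8 and Slc6a12 had -0.45 and 0.44. The processed intensity of Slc36a3 was 19.1 to 33.8 over the 4 arrays and that of Slc7a3 26.8 to 39.3, where the lowest intensity among probes well above background was 5.04 to 11.6. For Slc6a12 it was 3818 to 5577. Slc6a17, at 8.19 to 9.48, had a difference of -0.03 under this correction, of the opposite sign. The offset adds 50 to every intensity, which by itself narrows the log2 differences of dim probes. This run therefore cannot separate the way background was removed from the offset.

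**Figure D3:**
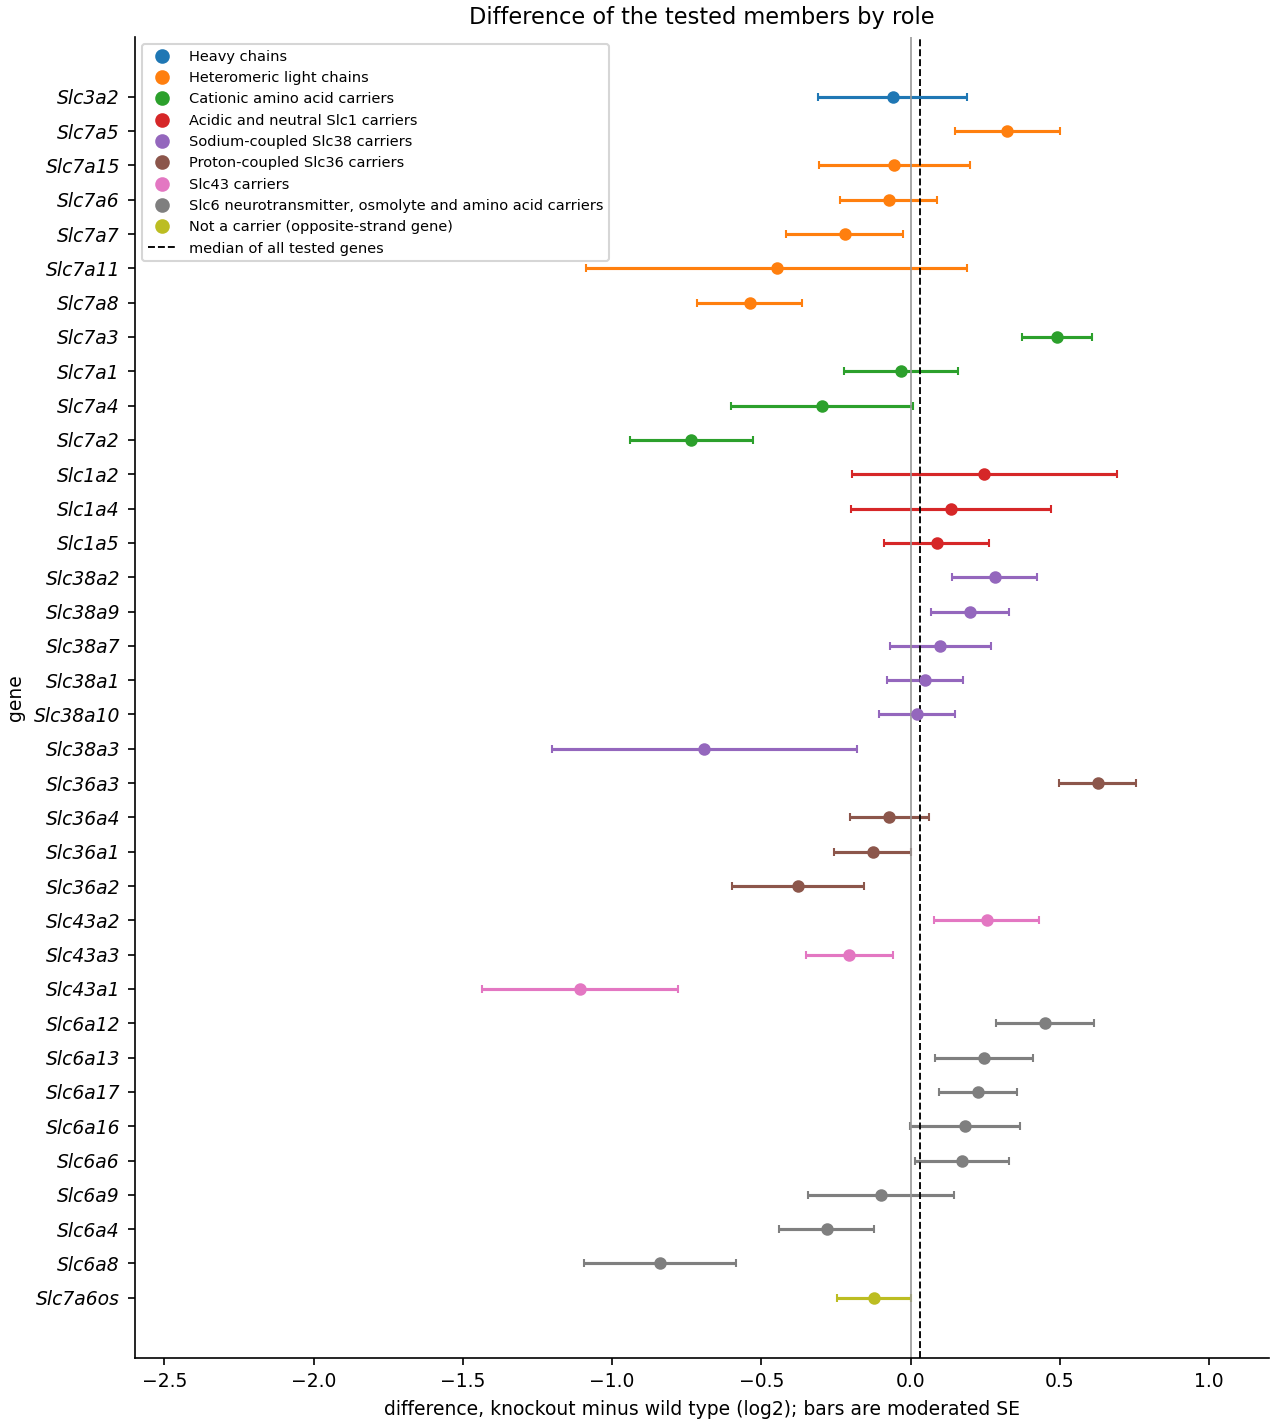
Difference of the 36 tested genes, knockout minus wild type on the log2 scale, with limma's moderated SE as bars and n = 2 arrays per genotype. Colours mark the roles, the grey line is 0, and the dashed line is the median of all tested genes, 0.03. Genes of 1 role lie on both sides of 0 in most families, from -1.11 for Slc43a1 to 0.63 for Slc36a3.

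Where a gene had further probes above background, they mostly gave the same sign. Over 14 genes there were 23 such probes, of which 18 had the sign of the probe used and 5 the other, with a median gap of 0.11 between differences. The widest gap, 0.54, was in Slc38a2, where a further probe had a difference of -0.26. Slc38a10 had -0.41 on its second probe against 0.02 on the probe used. Slc7a1, Slc7a6 and Slc36a4 also had a second probe of opposite sign, with differences of 0.13, 0.18 and 0.11. Of the genes with an unadjusted p under 0.05, Slc36a3 alone had a further probe above background, since Slc7a2, Slc7a3, Slc7a8, Slc43a1, Slc6a8 and Slc6a12 each had 1 probe on the array.

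**Figure D4:**
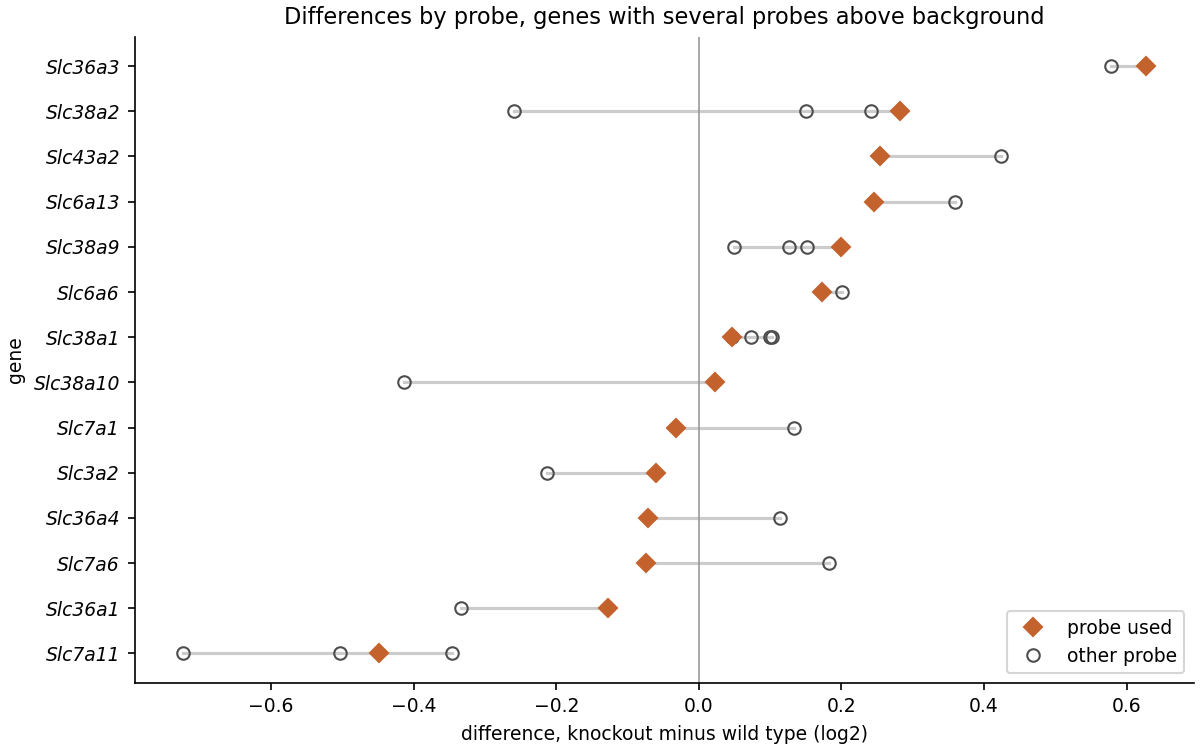
Difference by probe, knockout minus wild type on the log2 scale, for the 14 genes with more than 1 probe above background. Diamonds are the probe used and open circles the others. Slc38a2 and Slc38a10 have a probe on each side of 0, while every probe of Slc7a11 lies below 0 and both of Slc36a3 above it.

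Some of these genes are neighbours in the RefSeq order, with no protein-coding gene between them. Slc6a13 and Slc6a12 on chromosome 6 both had non-overlapping positive differences. Slc36a3, Slc36a2 and Slc36a1 follow each other on chromosome 11, and their differences were 0.63, -0.38 and -0.13. Slc38a1 and Slc38a2 on chromosome 15 had differences of 0.05 and 0.28. Neighbours thus had differences of the same sign in some places and of opposite sign in others.

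Several amino acid transporters are textbook targets of ATF4, the transcription factor of the amino acid response, which binds a composite C/EBP-ATF element. The letters TGATGNAA of its core were searched on both strands of RefSeq promoters, taken as 250 bases before to 50 after a transcript start in assembly GRCm38.p6. Promoters were given for 43 of the 61 genes, 63 promoters in all. The core was in 4 of these 63, belonging to Slc7a11, Slc7a7 and Slc1a4, and in 3.97% of all 32851 promoters. The windows are shown because Slc7a11 holds the core once on each strand, close together. They are written on the gene's strand, with the core in capitals, as TTGCATCA where it lies on the other strand.
Slc7a11, 66 bases before the start (chr3:50443662-50443689, minus strand): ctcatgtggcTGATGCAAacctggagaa
Slc7a11, 47 bases before the start (chr3:50443643-50443670, minus strand): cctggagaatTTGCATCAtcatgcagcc
Slc7a7 (chr14:54417928-54417955, minus strand): acctagaagcTGATGCAAcagcttcccc
Slc7a7 (chr14:54418068-54418095, minus strand): cgcttgggctTGATGAAAggttcactgg
Slc1a4, 4 bases before the start (chr11:20332700-20332727, minus strand): gcctcctgcgTTGCATCAtctccagcct
The arrays of all 3 genes overlapped between genotypes on the probe used, with differences of -0.45, -0.22 and 0.14. The letters TGACNNNGC, a core of the antioxidant element, were in 11 of the 63 promoters against 12.4% of all, and CACGTG, an E-box, in 9 of the 63 against 7.15% of all. Both were searched on both strands, and in Slc36a1 an E-box overlaps the antioxidant core. A match is a description of the letters and not of binding.

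The E-box promoters included that of Slc43a1, the gene with the widest difference, which is shown for that reason with the motif in capitals.
Slc43a1, 64 bases before the start (chr2:84840249-84840274, plus strand): ggtctccctcCACGTGgcagccgtgg
The other tested genes with this motif were Slc36a1, Slc38a7 and Slc6a16, with differences of -0.13, 0.10 and 0.18.

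Other genes of amino acid supply are given from 4 lists, none of which held a gene with an adjusted p under 0.05 (limma, Benjamini-Hochberg). Of all 16579 tested genes, 9042 had positive and 7537 negative differences. At an unadjusted p under 0.05, 7.97% of them were higher and 5.6% lower, the background for the counts of each list. The list of ATF4 and amino acid response targets also holds Atf4 itself and Eif2ak4. Of its 24 tested genes, 17 had positive and 7 negative differences, with a median of 0.20 against 0.03 for all genes. At an unadjusted p under 0.05, 1 was higher and 0 were lower. Both knockout arrays lay above in 9 and below in 1, against 27.8% and 20.3% of all tested genes. Measured against the wild-type mean, the list's median was 0.30 on knockout replicate 1 and 0.02 on knockout replicate 2, so the replicates differed. Nupr1, a stress-response regulator, had a difference of 0.59 ± 0.19, Stc2 one of 0.81 ± 0.33 and Phgdh, the first enzyme of serine synthesis, one of 0.34 ± 0.14. Atf5 had 0.42 ± 0.20, Ddit4, an inhibitor of mTORC1, 0.44 ± 0.22, and Atf3 went the other way with -1.64 ± 0.67.

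Of 36 tested genes of lysosomal amino acid sensing and mTORC1, 19 had positive and 17 negative differences, with a median of 0.02. At an unadjusted p under 0.05, 2 were higher and 1 lower. Sesn3, a sestrin, had a difference of 0.54 ± 0.16 and Seh1l, a subunit of the GATOR complex, one of 0.35 ± 0.12. Deptor (Depdc6 on the array), an inhibitor of mTOR, had one of -0.45 ± 0.16. Rraga, a Rag GTPase, had -0.36 ± 0.18, Depdc5 -0.29 ± 0.17 and Kptn 0.25 ± 0.15. The lysosomal carriers Slc38a9 and Slc36a1, described above, had differences of 0.20 and -0.13.

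The list of enzymes for glutamine, arginine, branched-chain amino acids and glutathione also holds Ido1 and Kynu. Of its 25 tested genes, 12 had positive and 13 negative differences, with a median of -0.01. At an unadjusted p under 0.05, 2 were higher and 3 lower. Arg2, the mitochondrial arginase, had a difference of 0.99 ± 0.33, and Gsr, glutathione reductase, one of 0.65 ± 0.23. Gls2, a glutaminase, had -1.31 ± 0.42, Dbt, a subunit of the branched-chain keto acid dehydrogenase, -0.53 ± 0.12, Gclc, the rate-limiting enzyme of glutathione synthesis, -0.35 ± 0.12, and Odc1, the first enzyme of polyamine synthesis, -0.56 ± 0.23. Nos2, the nitric oxide synthase of activated macrophages, stayed at background on all 4 arrays.

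Of 9 tested carriers from other families, 6 had positive and 3 negative differences, with a median of 0.21. At an unadjusted p under 0.05, 2 were higher and 0 lower. Slc15a4, a lysosomal carrier of histidine and peptides, read 2.68 and 2.80 in the wild type and 3.26 and 3.43 in the knockout, a difference of 0.60 ± 0.14. Slc32a1, the vesicular carrier of GABA and glycine, had a difference of 0.66 ± 0.20. Slc15a3, a lysosomal peptide carrier, had -0.35 ± 0.20 and the lysosomal cystine exporter Ctns 0.21 ± 0.14. Slc15a2, a peptide carrier, had 2.75 ± 2.07, which rested on wild-type replicate 1 at -8.59 where the other 3 arrays read -2.82 to -2.45.

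**Figure D5:**
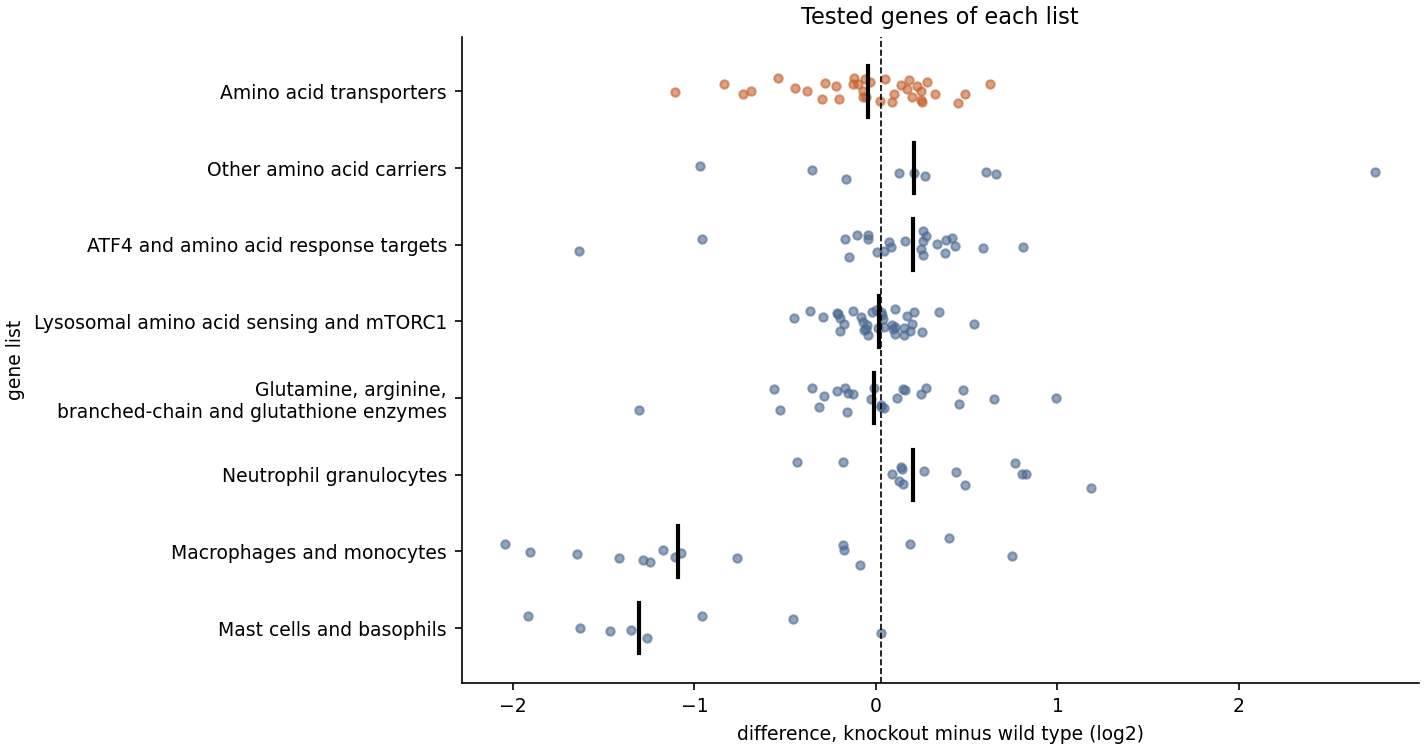
Difference of each tested gene by list, knockout minus wild type on the log2 scale. Points are genes, thick lines are list medians, and the dashed line is the median of all tested genes, 0.03. The transporters spread around 0 with a median of -0.04, while the macrophage and mast cell markers have medians of -1.09 and -1.31.

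The sorted cells carried the markers of their label. All 14 neutrophil markers on the array were well above background on all 4 arrays, 12 with positive and 2 with negative differences, and their summed signal, in multiples of the 75th percentile, was 3787 to 4029 in the wild type and 4149 to 4602 in the knockout. Markers of other cells were present as well, and many had wide differences between genotypes. Of 16 macrophage and monocyte markers, all well above background on 4 arrays, 13 had negative and 3 positive differences. Both knockout arrays lay below in 10 and above in 3, against 20.3% and 27.8% of all tested genes. Mertk and Mrc1 had differences of -2.04 and -1.17, while Csf1r had -0.17 and Cd68 -0.09. Their summed signal was 457 to 493 in the wild type and 589 to 614 in the knockout, a sum led by Ly6c2, which was higher in the knockout by 0.40.

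Mast cell and basophil markers were lower on both knockout arrays in 7 of 8 tested genes, against 20.3% of all tested genes. Their median against the wild-type mean was -0.51 on knockout replicate 1 and -2.14 on knockout replicate 2. Their summed signal was 37.4 to 43.8 in the wild type and 19.6 to 28.0 in the knockout, with the mast cell proteases Mcpt4, Tpsb2, Tpsab1 and Cma1 not well above background on any array. Dendritic cell markers summed to 176 to 190 in the wild type and 124 to 185 in the knockout. Of 11 tested dendritic cell markers, 8 had negative and 3 positive differences. Both knockout arrays lay below in 5 and above in 2, against 20.3% and 27.8% of all tested genes. Eosinophil markers summed to 11.9 to 60.9 in the wild type and 20.3 to 26.6 in the knockout. Megakaryocyte markers summed to 5.69 to 11.6 and 3.61 to 4.21. For B cells (Pax5, Ebf1, Igll1), T and NK cells (Cd3g, Klrb1c, Ncr1, Gzma) and erythroid cells (Klf1, Alas2, Ahsp), the markers named were not well above background on any array. Slc7a2, Slc43a1, Slc6a8 and Slc7a8 were the 4 transporters lower at an unadjusted p under 0.05. Their differences had the same sign as those of most macrophage, dendritic cell and mast cell markers. The part of these cells in the 4 results was not tested.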

How the data were processed

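Cy3-labelled RNA, made with an amplification kit per the labels' protocols, was read on Agilent arrays of design 014868. The processed intensity of each spot, as deposited, came from Agilent Feature Extraction 10.5.1.1 per the file headers, which removes background and does not normalize between arrays. The authors' deposited log2 values matched log2 of that intensity plus 1 constant per array for 99.8% of 41150 probes on each array (tolerance 0.01) and served as an alternative. How they were made is not given in the sources used here.

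Here, controls and outlier-flagged spots were dropped, and each array's 75th percentile of log2 processed intensity over 41150 probes was subtracted. It stood at 586 and 486 in the wild type and 515 and 494 in the knockout. Between 57.6% and 63.6% of probes per array were well above background, and no transporter probe was saturated. Correlations across tested genes, which are not independent replicates, were 0.990 within the wild type, 0.994 within the knockout and 0.985 to 0.991 between genotypes. The number of arrays limits the precision.

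Genes were keyed by the array's gene name, 1 probe per gene as described above. For 53 of the 61 transporters the accession of the probe used gave the same RefSeq symbol, and for 8 it gave none. Genes clearly above background on the pair of arrays of 1 genotype or more (the scanner's well-above-background flag) were compared with limma (lmFit, eBayes, two-sided) and Benjamini-Hochberg adjustment over all 16579. The code was checked on simulated data.

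Every tested transporter is named, with the value of every array where the genotypes did not overlap or the unadjusted p was under 0.05. Up to 6 tested genes per list with the smallest p are named. Some genes are not reported by name here. The genes, lists and rules were chosen with earlier results of these data known. Alternatives were normexp background correction, quantile, spike-in (8 probes) and the authors' scaling, other filters, the mean over probes, RefSeq naming, the replicate block, leaving out each array and, added after the data were seen, each probe by itself. The tests ran in limma 3.58.1 under R 4.3.3, with files read through the packages data.table (1.17.8) and jsonlite (2.0.0).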

Additional observations from a re-analysis of the deposited data

How the results depend on the processing

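With 2 arrays per genotype, limma called no transporter (0) at an adjusted p under 0.05 in any alternative run, including the fit of single probes. That fit called 3 of all 25057 tested probes. At an unadjusted p under 0.05, 5 of 60 transporter probes were higher and 6 lower, with more than 1 probe of Slc36a3 among them. The matching shares of all probes were not computed, so these counts show nothing particular to the transporters. Over all genes, normexp called 5, spike-in scaling 4 and the authors' values 1, and the other gene-level alternatives 0. The count of transporters higher at an unadjusted p under 0.05 was 1 under normexp, and 0 to 2 when 1 array was left out; that of lower ones was 2 to 5. Those with both knockout arrays above numbered 12 to 13 when 1 array was left out, and those below 13 to 15, where a group holds 1 array assumed to vary like the others. The shares of all genes were then 37.4% to 44.2% above and 28% to 35.6% below, so the counts over all genes were larger too. Without a filter on dim probes 16 of 61 lay below, against 17.1% of all 28137 genes. Normexp gave 7 above and 12 below of 36, against 20.5% and 18% of all genes. The median stayed between -0.14 and 0.04.

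The replicate numbers are shared between genotypes, but nothing in the labels pairs the samples, and the correlation of deviations between same-numbered arrays was 0.175 over 16579 genes. With the replicate block, 0 transporters were called, 3 were higher and 3 lower at an unadjusted p under 0.05, and the counts above and below were 8 and 8. Over all genes the block gave 1406 higher and 1077 lower, and no call changed.

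The sign of 19 of 36 transporters held in every alternative. It turned in 35 of 465 values, all of transporters with overlapping arrays apart from Slc6a17. Leaving out 1 array cannot turn the sign where the arrays do not overlap. Other filters and the replicate block left each difference as it was. Part of this pattern was therefore fixed in advance, and why signs turned elsewhere was not tested. With the mean over probes, Slc36a4 had 0.021, Slc38a10 -0.20, Slc7a1 0.051 and Slc7a6 0.054. Under normexp, Slc1a4 had -0.019, Slc38a1 -0.043, Slc38a7 -0.025 and Slc6a17 -0.026. Under quantile normalization, Slc38a1 had -0.0079 and Slc38a10 -0.019. Under spike-in scaling, Slc1a5 had -0.0079, Slc38a1 -0.049 and Slc38a10 -0.074. When 1 array was left out, ranges crossed 0 for Slc1a2 (-0.21 to 0.70), Slc1a4 (-0.32 to 0.59), Slc1a5 (-0.094 to 0.27), Slc36a4 (-0.16 to 0.016), Slc38a1 (-0.021 to 0.12) and Slc38a10 (-0.045 to 0.089). The same held for Slc38a3 (-1.42 to 0.039), Slc38a7 (-0.061 to 0.26), Slc3a2 (-0.39 to 0.27), Slc6a9 (-0.40 to 0.20) and Slc7a1 (-0.23 to 0.16). It also held for Slc7a11 (-1.28 to 0.38), Slc7a15 (-0.30 to 0.19), Slc7a4 (-0.60 to 0.0095), Slc7a6 (-0.20 to 0.048) and Slc7a7 (-0.45 to 0.012).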
